A study of Danio rerio with 24 samples.

Results

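The genes described here are 8 genes of the zebrafish red blood cell, followed in male liver: the adult alpha globins hbaa1 and hbaa2, the adult beta globins hbba1 and hbba2, and alas2, slc4a1a, cahz and nt5c2l1. They were chosen by name, as globin and erythrocyte genes, out of 32105 genes in the count table, and had to average at least 10 reads a library. All 8 reached that minimum, as did 11974 of the 32105 genes over the 24 libraries. Livers of wild-type AB fish were compared in 4 groups of 6 libraries. The F1 high ARA group was the progeny of fish fed a diet high in arachidonic acid (ARA, an omega-6 fatty acid), and the F1 control group was the progeny of fish fed the control diet. Both F1 groups themselves ate the control feed and were sampled at 140 to 142 days post fertilization. The F0 high ARA and F0 control groups were fed their diets from day 27, were mated at day 97 and were sampled at 154 to 156 days. Each library pooled 6 male livers of 1 tank, so a replicate is a tank and not a fish. Generation came with age at sampling and with a separate sampling point, and these cannot be told apart. The paper also names the diet of generations before F0 as a possible influence on the F0 fish. Between the high ARA groups, generation also came with the fish's own diet, since only the F0 fish ate the high ARA diet. These cannot be told apart either.

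Hemoglobin is built from a pair of alpha and a pair of beta globin chains, each holding a heme. Fish red blood cells keep their nucleus and still hold mRNA for globins and other erythrocyte proteins when they circulate, so liver tissue that contains blood yields these transcripts along with those of hepatocytes. In zebrafish the adult alpha and beta globin genes lie next to each other, transcribed from opposite strands, with a separate set of embryonic globin genes in the same region. The Alas2 enzyme makes the first intermediate of heme synthesis in erythroid cells, whereas Alas1 serves other cells. Slc4a1a is the zebrafish band 3 protein, which exchanges chloride for bicarbonate across the erythrocyte membrane and anchors its skeleton. Cahz is a carbonic anhydrase of fish erythrocytes that converts carbon dioxide to bicarbonate. The gene nt5c2l1 is annotated as like the cytosolic 5'-nucleotidase II family, enzymes that remove the phosphate from purine nucleotides.

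On the GRCz10 genome the 4 globin genes lay within a short stretch of chromosome 3. The gene hbba2 (ENSDARG00000069734) was annotated on the minus strand at chr3:54836628-54837449 and hbaa2 (ENSDARG00000069735) on the plus strand at chr3:54838979-54839797. They were followed by hbba1 (ENSDARG00000089087, minus strand, chr3:54843971-54849708) and hbaa1 (ENSDARG00000097011, plus strand, chr3:54845443-54851382). The Ensembl models of hbaa1 and hbba1 overlapped each other without sharing an exon base. On the same chromosome, far from the globins at lower coordinates, was slc4a1a (ENSDARG00000012881, minus strand, chr3:19916121-19944785). The other genes were alas2 (ENSDARG00000038643, plus strand, chr8:21321758-21338179), cahz (ENSDARG00000011166, minus strand, chr2:29493850-29501875) and nt5c2l1 (ENSDARG00000034852, minus strand, chr10:17502924-17561599). In the RefSeq annotation the globins had 3 exons each, cahz had 7, alas2 had 11, nt5c2l1 had 18 and slc4a1a had 21.

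The total count on Ensembl genes lay between 8636978 and 11800367 in the F1 high ARA libraries, between 5144880 and 8493413 in the F1 control libraries, between 5973529 and 11646711 in the F0 high ARA libraries and between 5608588 and 15659321 in the F0 control libraries. Every F1 high ARA library was thus deeper than every F1 control library. Hepatocyte genes dominated all libraries, with apoa1b, apoa2 and fabp10a at a mean of 41507, 38824 and 17114 CPM (read counts scaled by library total and TMM factor, the usual counts-per-million scale), and none of 5 testis genes passed the filter. Genes of the exocrine pancreas, such as prss1 at a mean of 536 CPM, and of enterocytes, such as vil1 at 23.5 CPM, were also present. The summed CPM of 13 pancreas genes ranged from 1890 to 4646 in F1 high ARA, from 1073 to 9006 in F1 control, from 2517 to 5589 in F0 high ARA and from 732 to 3580 in F0 control livers. That of 5 enterocyte genes ranged from 47.8 to 61.4 in F1 high ARA, from 21.8 to 337 in F1 control, from 14.1 to 570 in F0 high ARA and from 16.5 to 944 in F0 control livers. Their part in the results below was not tested.

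Counted reads of erythrocyte genes made a small part of the liver libraries. Reads that mapped to several places were left out of these counts, and how many of those came from globins is not known. The 4 globins together took between 0.0127% and 0.0337% of the counts of a library in F1 high ARA livers (median 0.0161%), against 0.0158% to 0.0259% in F1 control livers (median 0.0239%). In F0 high ARA livers they took 0.0150% to 0.0212% (median 0.0174%), against 0.0175% to 0.0298% in F0 control livers (median 0.0190%). The ranges overlapped in both generations. In bulk liver, a lower level of such a gene can come from fewer red blood cells in the tissue or from less of its RNA per cell, and these cannot be told apart here. The fish had been killed by cutting a vein and the livers rinsed before freezing, so the amount of blood left in a liver was not a controlled quantity.

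The 8 genes spanned more than an order of magnitude of level. By CPM per kilobase of exon, averaged over the 24 libraries, hbba1 was highest at 185, followed by hbaa1 at 128, hbba2 at 21.0, cahz at 13.2, alas2 at 11.9, nt5c2l1 at 8.32, hbaa2 at 8.23 and slc4a1a at 2.52. Most steps of this order held in nearly every library: hbba1 was above hbaa1 in 23 of 24, hbaa1 above hbba2 and hbba2 above cahz in 24 of 24, alas2 above nt5c2l1 in 23 of 24 and hbaa2 above slc4a1a in 24 of 24. The order of cahz and alas2 held in 18 of 24 libraries and that of nt5c2l1 and hbaa2 in 13 of 24, so nt5c2l1 and hbaa2 could not be ordered. Within each globin pair the second gene was thus far below the first in counted reads, with hbaa2 at a mean count of 36.4 reads per library and hbaa1 at 584. Among the 11974 genes the mean CPM of hbba1 stood at percentile 93.0, that of hbaa1 at percentile 90.4 and that of hbaa2 at percentile 32.3.

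Embryonic globins were close to absent. None of 11 embryonic globin genes passed the filter. By Ensembl counts hbae1.1, hbae1.2, hbae1.3, hbbe1.2 and hbbe3 had no count in any of the 24 libraries, while hbbe1.2 had a mean RefSeq count of 0.1. The highest of them, hbae4, averaged 1.26 ± 0.61 CPM in F1 high ARA, 1.29 ± 0.54 in F1 control, 0.678 ± 0.359 in F0 high ARA and 1.19 ± 0.75 in F0 control livers (SD, n = 6 each). Nearly all globin reads counted here were thus from the adult genes.

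Paralogs limit how exactly a globin read is placed. Reads that mapped to several places had been left out of the counts, and reads had been counted without regard to strand. Next to hbaa1 and hbba1 lie si:ch211-5k11.8, sharing 234 exon bases with the Ensembl model of hbaa1, and the gene that RefSeq calls ba1l, sharing 129 exon bases with the Ensembl model of hbba1. In the RefSeq annotation, where these models are shorter, si:ch211-5k11.8 had a mean count of 924 and ba1l of 359, against 312 and 153 in the Ensembl annotation, while hbaa1 and hbba1 kept their counts to within 2 reads per library. By RefSeq counts si:ch211-5k11.8 had 214 CPM per kilobase and was higher than hbaa1 at 137 and hbba1 at 199. The counted adult globin level in these livers was therefore larger than the sum of the 4 genes. The 6 genes together took 0.0254% to 0.0633% of RefSeq counts (median 0.0367%). Globin reads left out for mapping to several places are in neither sum. The gene alas2 shared 135 exon bases with ela2l, a pancreatic elastase gene on the opposite strand with a mean count of 1650. The counts of alas2 were identical under both annotations in 24 of 24 libraries. That cannot show whether ela2l reads entered alas2 exons common to both models, since both counts ignored strand. The correlation of alas2 with ela2l over the 24 libraries was r = 0.30 (permutation p = 0.156) and rho = 0.42 (permutation p = 0.0400). Within groups r was 0.61 in F1 high ARA, -0.51 in F1 control, 0.85 in F0 high ARA and 0.54 in F0 control livers.

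**Figure D1:**
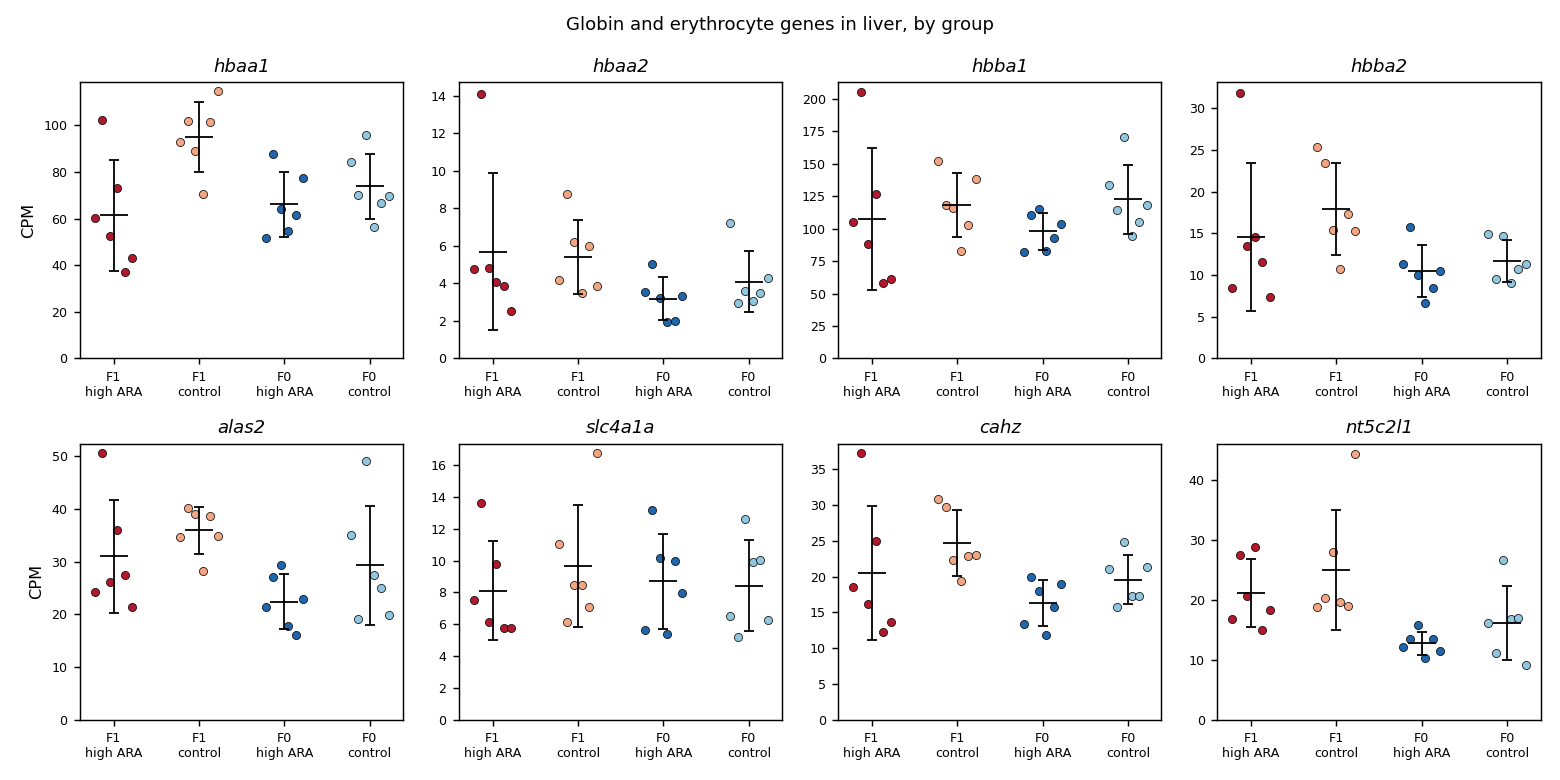
CPM of the 8 genes (y axis, from 0) in the 6 libraries of each group (x axis); each point is 1 library, the wide bar is the group mean and the whiskers are 1 SD. In every panel the groups overlap, and replicate 14 of F1 high ARA is the highest library of the 24 for hbaa2, hbba1, hbba2, alas2 and cahz.

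The first question was whether livers of F1 fish differed by the diet of their parents. None of the 8 genes passed the adjusted threshold of 0.05 in F1 high ARA against F1 control, where 1.93% of 11690 genes were called by edgeR's quasi-likelihood test. At an unadjusted p under 0.05 there was 1 of 8, against 19.8% of all genes, and the 2 versions of the DESeq2 test also called none. The fitted log2 fold change (log2FC) was below zero for 7 of 8 genes, with a median of -0.26 against 0.00 over all genes. The exception by sign was hbaa2, at 0.06 with an SE of 0.39.

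The alpha globin hbaa1 had the largest difference. It had 60.1, 102, 52.6, 73.2, 37.3 and 42.9 CPM in the F1 high ARA livers, against 92.9, 102, 89.0, 70.6, 102 and 115 CPM in the F1 control livers. Of the 6 F1 high ARA livers, 4 were below the lowest F1 control liver, replicate 16 was just above it, and replicate 14 was level with the upper F1 control livers. The log2FC was -0.64 (SE 0.21, adjusted p = 0.121), and an exact permutation test on log2 CPM gave a difference of -0.69 with p = 0.0238 (two-sided, n = 6 each). The call turned on 1 library: without replicate 14 of F1 high ARA the log2FC was -0.84 (SE 0.17) and the adjusted p was 0.0336 by edgeR, while leaving out any other library kept the adjusted p between 0.108 and 0.218.

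The fitted difference of the beta globin hbba1 was smaller. The gene ranged from 58.2 to 205 CPM in F1 high ARA livers (median 96.8), against 82.5 to 152 CPM in F1 control livers (median 117). The F1 high ARA livers held both the lowest and the highest values of the 24, and the groups overlapped widely, at a log2FC of -0.14 (SE 0.28, adjusted p = 0.816). The second beta globin, hbba2, had 7.38 to 31.8 CPM in F1 high ARA livers (median 12.5), against 10.7 to 25.3 CPM in F1 control livers (median 16.4). Its log2FC was -0.31 (SE 0.34, adjusted p = 0.655). The second alpha globin, hbaa2, had 2.51 to 14.1 CPM in F1 high ARA livers (median 4.44), against 3.49 to 8.73 CPM in F1 control livers (median 5.07). Here 5 of 6 F1 high ARA livers were below the F1 control median, and the highest value of all was again replicate 14.

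None of the 4 genes of erythrocyte enzymes and transporters was called, and the ranges of the groups overlapped for each. The heme synthesis gene alas2 had 21.5 to 50.6 CPM in F1 high ARA livers (median 26.8), against 28.2 to 40.2 CPM in F1 control livers (median 36.8), at a log2FC of -0.22 (SE 0.18, adjusted p = 0.539). Carbonic anhydrase cahz had 12.3 to 37.3 CPM (median 17.4) in F1 high ARA livers, against 19.3 to 30.8 CPM (median 22.9) in F1 control livers, with -0.28 (SE 0.24, adjusted p = 0.564). The values of the F1 high ARA group reached both below and above the F1 control range for these genes. The anion exchanger slc4a1a had 5.74 to 13.6 CPM in F1 high ARA livers (median 6.82), against 6.16 to 16.8 CPM in F1 control livers (median 8.47), and nt5c2l1 had 15.1 to 28.8 CPM (median 19.5), against 18.8 to 44.3 CPM (median 20.0). Their adjusted p-values were 0.605 and 0.588.

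The F1 high ARA group had the widest spread by the median over the 8 genes. The within-group coefficient of variation of the 8 genes had a median of 42.2% in F1 high ARA livers, where all 8 genes were above the all-gene median of 21.1%. In F1 control, F0 high ARA and F0 control livers the median over the 8 genes was 25.8%, 21.9% and 28.0%, against 20.6%, 19.5% and 21.0% over all genes. Not every gene had its widest spread in F1 high ARA. The coefficient of nt5c2l1 was 27.0% there, against 40.2% in F1 control and 38.0% in F0 control livers. That of alas2 was 34.8%, against 38.6% in F0 control livers. That of slc4a1a was 38.4%, against 39.8% in F1 control livers. The largest was that of hbaa2 in F1 high ARA livers, at 73.8%. Much of this spread came with replicate 14: without it, an alternative chosen after the data were seen, the median over the 8 genes in F1 high ARA livers was 26.9% and 7 of 8 genes were above the all-gene median of 21.1%. No test of the difference in spread was made.

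Replicate 14 of F1 high ARA was among the 3 highest libraries of 24 for 7 of the 8 genes, with 353 CPM for the 4 globins summed. Without it the fitted differences from F1 control were below zero for all 8 genes, with a median of -0.46. That of hbaa2 then was -0.43 (SE 0.25, adjusted p = 0.368) and that of hbba2 was -0.69 (SE 0.23, adjusted p = 0.139). The labels give no ground to set this library aside. At the other end, replicates 17 and 18 of F1 high ARA and replicate 16 of F0 high ARA were the 3 lowest libraries by the mean of the 8 genes.

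**Figure D2:**
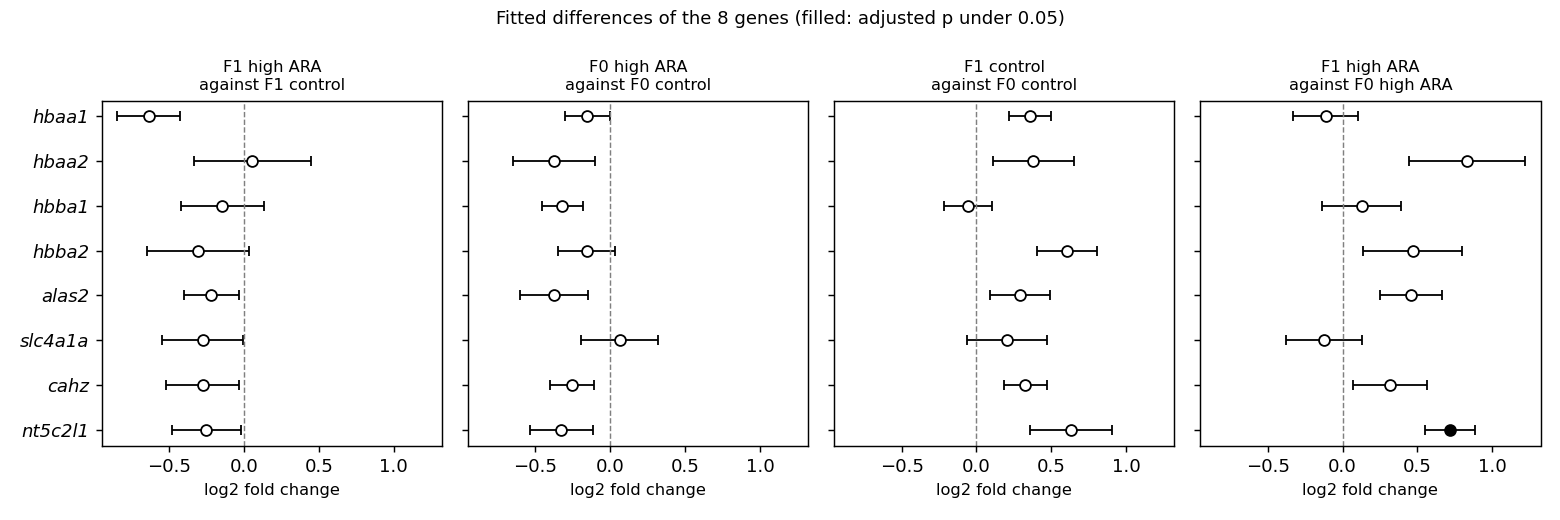
Log2 fold changes of the 8 genes (x axis) from edgeR's quasi-likelihood fit in 4 comparisons, with whiskers of 1 SE; a filled point marks an adjusted p under 0.05. The only filled point is nt5c2l1 in F1 high ARA against F0 high ARA, at 0.72.

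The second question was whether the high ARA diet itself went with a difference in the fish that ate it. None of the 8 genes was called in F0 high ARA against F0 control, nor was any of the 12194 genes tested (0%). At an unadjusted p under 0.05 there was 1 of 8, against 7.43% of all genes, and DESeq2 called none of the 8. The fitted log2 fold change was below zero for 7 of 8 genes, from -0.37 to 0.06, with a median of -0.29 against -0.02 over all genes. The 1 gene above zero, slc4a1a, changed sign when any of 4 single libraries was left out.

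Among the globins hbba1 came nearest to a difference in F0. It had 82.1, 110, 115, 82.9, 92.8 and 104 CPM in F0 high ARA livers, against 134, 114, 170, 94.2, 105 and 118 CPM in F0 control livers. All 6 F0 high ARA livers were below the F0 control median, though the ranges overlapped. The log2FC was -0.32 (SE 0.14, unadjusted p = 0.0380, adjusted p = 0.641), and the exact permutation test gave p = 0.0563 (two-sided, n = 6 each). The alpha globin hbaa1 differed less, with 51.6 to 87.8 CPM in F0 high ARA livers (median 62.7), against 56.3 to 95.7 CPM in F0 control livers (median 69.8) and a log2FC of -0.15 (SE 0.15).

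For the remaining genes the F0 ranges also overlapped. The alpha globin hbaa2 had 1.95 to 5.02 CPM in F0 high ARA livers (median 3.29), against 2.93 to 7.22 CPM in F0 control livers (median 3.53). The beta globin hbba2 had 6.66 to 15.8 CPM (median 10.3) in F0 high ARA livers, against 9.03 to 14.9 CPM (median 11.03) in F0 control livers. Adjusted p-values of the 8 genes ran from 0.641 to 0.976. The gene alas2 had 16.1 to 29.3 CPM in F0 high ARA livers (median 22.1), against 19.1 to 49.1 CPM in F0 control livers (median 26.2). Carbonic anhydrase cahz had 11.9 to 19.9 CPM (median 16.8) in F0 high ARA livers, against 15.7 to 24.9 CPM (median 19.2) in F0 control livers, with 5 of 6 below the control median. All 6 F0 high ARA livers were below the F0 control median for nt5c2l1 as well, at 10.2 to 15.8 CPM (median 12.8), against 9.14 to 26.7 CPM (median 16.5) in F0 control livers. The anion exchanger slc4a1a was alike in its medians, at 8.95 CPM in F0 high ARA livers, against 8.21 CPM in F0 control livers.

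The effect of parental diet in F1 and that of the diet in F0 were compared by the interaction of diet and generation over all 24 libraries. None of the 8 genes was called, where 0.109% of 11974 genes were called, and none reached an unadjusted p under 0.05, against 12.9% of all genes. The nearest was hbaa1, with an interaction of -0.47 on the log2 scale (SE 0.27, adjusted p = 0.468). Of the 8 estimates 4 were above and 4 below zero, from -0.47 to 0.44. Without replicate 14 of F1 high ARA all 8 were below zero, with a median of -0.19 in place of 0.03, and still none was called.

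The generations were compared within the control lineage and within the high ARA lineage. In the high ARA lineage the F1 fish ate the control feed and the F0 fish the high ARA diet. Generation, age and the fish's own diet cannot be told apart there. In F1 control against F0 control, 2.34% of 11729 genes were called and none of the 8. At an unadjusted p under 0.05 by edgeR were hbaa1, hbba2, cahz and nt5c2l1, 4 of 8 against 18.1% of all genes, and DESeq2 called none of the 8. The 8 genes varied together over the libraries, as described below, so these 4 are not independent of each other. The fitted log2 fold change was above zero for 7 of 8 genes, with a median of 0.34 against -0.01 over all genes. The exception was hbba1, at -0.06 (SE 0.16), with 82.5 to 152 CPM in F1 control livers, against 94.2 to 170 CPM in F0 control livers.

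The largest of these differences were those of nt5c2l1 and hbba2. In F1 control livers hbba2 had 10.7 to 25.3 CPM (median 16.4), against 9.03 to 14.9 CPM (median 11.03) in F0 control livers, and 5 of 6 F1 livers were above the F0 median. Its log2FC was 0.61 (SE 0.20, adjusted p = 0.124), and the exact permutation test gave p = 0.0238 (two-sided, n = 6 each) with TMM-scaled CPM but 0.0649 with CPM by library totals. For hbaa1, all 6 F1 control livers were above the F0 control median, at a log2FC of 0.36 (SE 0.14, adjusted p = 0.188) and exact permutation p-values of 0.0303 and 0.0779 on the same pair of scales (n = 6 each). Carbonic anhydrase cahz and nt5c2l1 also had all 6 F1 control livers above the F0 control median, at log2FC values of 0.33 (SE 0.14, adjusted p = 0.237) and 0.63 (SE 0.27, adjusted p = 0.247). In all, exact tests were made for 32 combinations of the 8 genes and 4 comparisons. Each was run on log2 CPM, on untransformed CPM and on log2 CPM by library totals. Their p-values are unadjusted, with 0.00216 the smallest that 6 libraries against 6 allow.

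In F1 high ARA against F0 high ARA, 16.9% of 12150 genes were called, and 1 of the 8, nt5c2l1. At an unadjusted p under 0.05 were alas2 and nt5c2l1, against 32.9% of all genes. The gene nt5c2l1 had 16.8, 27.4, 20.7, 28.8, 15.1 and 18.3 CPM in F1 high ARA livers, against 12.1, 13.5, 15.8, 10.2, 13.5 and 11.4 CPM in F0 high ARA livers. The 2 groups overlapped only in that the highest F0 library was above the lowest F1 library, and all 6 F1 livers were above the F0 median. The log2FC was 0.72 (SE 0.17, adjusted p = 0.0118), a fold of 1.64, and the exact permutation test gave p = 0.00433 (two-sided, n = 6 each). The gene was called under every alternative test, scaling, filter and annotation tried, with adjusted p between 0.00214 and 0.0341, and whichever library was left out. Replicates 14 and 16 of F1 high ARA had the highest values. In the same comparison edgeR called 3 of 5 enterocyte, 2 of 5 macrophage, 1 of 5 endothelial and 1 of 4 neutrophil genes, all lower in F1, and their part in the result was not tested.

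The share of the 8 genes called, 1 of 8, is not far from the 16.9% called among all genes in that comparison. The other 7 did not pass: 5 were above zero and 2 below, and the median over the 8 genes was 0.39 against 0.00 over all genes. This median depended on replicate 14 of F1 high ARA and was 0.08 without it. The gene alas2 had 21.5 to 50.6 CPM in F1 high ARA livers, against 16.1 to 29.3 CPM in F0 high ARA livers, at a log2FC of 0.46 (SE 0.21, adjusted p = 0.142). The abundant globins were close to level, hbaa1 at -0.11 (SE 0.22) and hbba1 at 0.13 (SE 0.26). Each group enters 2 of the 4 comparisons, so the differences above are not independent of each other.

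**Figure D3:**
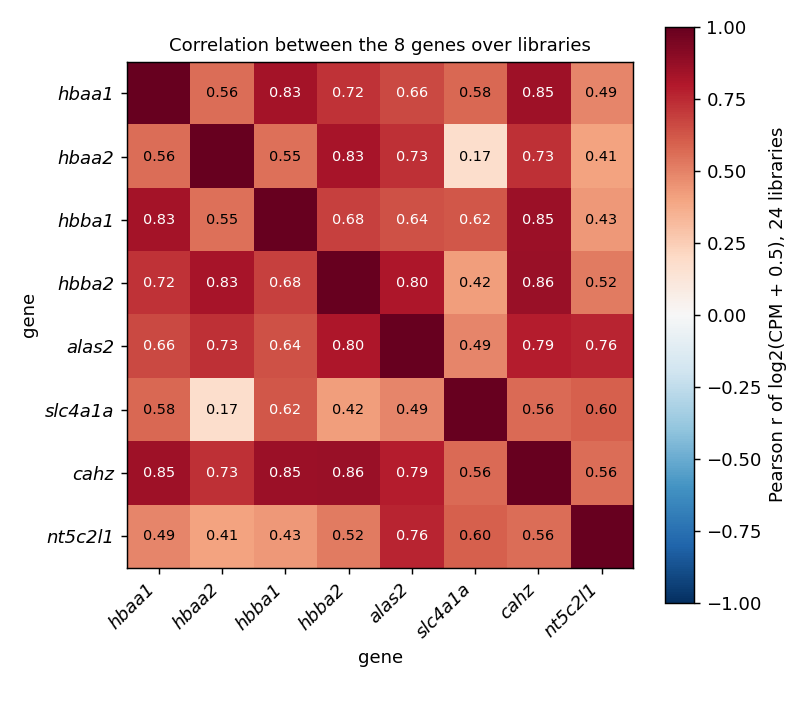
Pearson correlation of log2(CPM + 0.5) between each pair of the 8 genes over the 24 libraries (colour scale from -1 to 1, value printed in each cell). All 28 pairs are above zero, from 0.17 for hbaa2 with slc4a1a to 0.86 for hbba2 with cahz.

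The 8 genes varied together from tank to tank. Over the 24 libraries the Pearson correlation of log2(CPM + 0.5) was positive for all 28 pairs, with a median of 0.63. For scale, each gene's correlations with the 11973 other genes tested had a median between -0.01 and 0.02 and a 95th percentile between 0.31 and 0.46, and 26 of the 28 pairs were above the 95th percentile of both their genes. The points share their library, so depth and scaling are common to both axes, and these correlations are descriptions.

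The tightest pairs joined the globins with carbonic anhydrase. The genes hbba2 and cahz had r = 0.86 and rho = 0.78, and hbba1 and cahz had r = 0.85 and rho = 0.85. The alpha and beta globins hbaa1 and hbba1 had r = 0.83 and rho = 0.80, and r = 0.73 without the 2 libraries farthest from the hbaa1 median. The gene slc4a1a had the lowest maximum, with correlations from 0.17 with hbaa2 to 0.62 with hbba1, at a mean count of 70.4 reads. By its median correlation with the other genes the loosest was nt5c2l1, at 0.52, against 0.56 for hbaa2 and 0.56 for slc4a1a.

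The correlations were also present within groups. With group means removed, the median over the 28 pairs was 0.66. Within F1 high ARA livers it was 0.85 and all 28 pairs were positive, within F1 control livers 0.44 with 21 of 28 positive, within F0 high ARA livers 0.66 with 28 of 28 positive and within F0 control livers 0.59 with 26 of 28 positive. With 6 libraries a group these are descriptions. The 2 libraries farthest from the median of a pair's first gene, in the order of the opening list, were also left out. The median was then 0.58 and all 28 pairs stayed positive. A library extreme only for the second gene stayed in. Without replicate 14 of F1 high ARA, the median over 23 libraries was 0.56, 27 of 28 pairs were positive, and the median within the 5 remaining F1 high ARA livers was 0.65.

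The ratio of the main beta to the main alpha globin is given as a description for each group. The ratio of hbba1 to hbaa1 in CPM per kilobase was 1.69, 1.93, 1.62, 1.67, 1.503 and 1.37 in F1 high ARA livers, against 1.58, 1.12, 1.26, 1.13, 0.978 and 1.16 in F1 control livers. All but 1 F1 control liver, replicate 7, were below the whole F1 high ARA range. In F0 high ARA livers the ratio was 1.21 to 1.73 (median 1.46), against 1.52 to 1.71 (median 1.59) in F0 control livers. The F1 control group thus had the lowest median, 1.14, against 1.64 in F1 high ARA livers, and the F0 control group the narrowest range. RefSeq counts gave medians of 1.64 in F1 high ARA, 1.14 in F1 control, 1.46 in F0 high ARA and 1.59 in F0 control livers.

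This ratio is taken within a library, and it rests on how the reads of close paralogs were placed. With 3 beta genes (hbba1, hbba2 and ba1l) set over 3 alpha genes (hbaa1, hbaa2 and si:ch211-5k11.8) in RefSeq counts, the ratio was 0.741 to 0.969 in F1 high ARA livers (median 0.843), against 0.567 to 0.858 in F1 control livers (median 0.741). It was 0.767 to 0.918 in F0 high ARA livers (median 0.879), against 0.865 to 0.933 in F0 control livers (median 0.904). The F1 groups then overlapped more, and F1 control still had the lowest median. Neither of the other paralog ratios had its lowest median in F1 control. That of hbba2 to hbaa2 had medians of 2.47 in F1 high ARA, 2.56 in F1 control, 2.73 in F0 high ARA and 2.59 in F0 control livers. That of ba1l to si:ch211-5k11.8 was 0.317 to 0.378 in F1 high ARA livers (median 0.349), against 0.213 to 0.454 in F1 control livers (median 0.360). It was 0.372 to 0.433 in F0 high ARA livers, against 0.361 to 0.441 in F0 control livers. These ratios were looked at after the levels had been seen and were not tested.

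**Figure D4:**
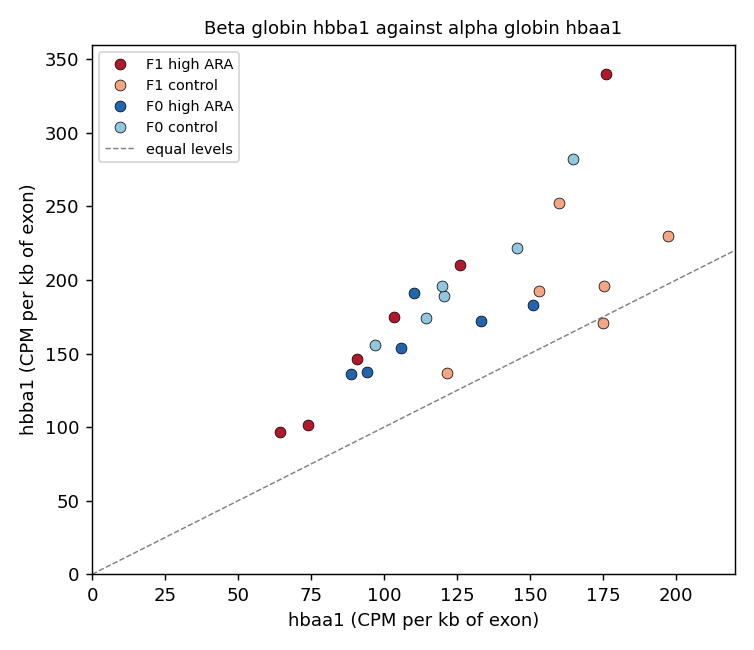
Level of the beta globin hbba1 (y axis) against that of the alpha globin hbaa1 (x axis), both in CPM per kilobase of exon, 1 point a library, with a dashed line where they are equal. The only point below the line is an F1 control library at a ratio of 0.978, the other F1 control libraries reach up to 1.58, and the F1 high ARA library at the top is replicate 14.

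Erythrocyte membrane genes were compared with the 8 next. Of 11 erythrocyte membrane and skeleton genes, 10 were matched in the table and 8 passed the filter. Their sum ranged from 33.5 to 44.4 CPM in F1 high ARA and from 43.8 to 51.4 in F1 control livers. It ranged from 38.2 to 52.2 in F0 high ARA and from 45.1 to 52.6 in F0 control livers. A large part of this sum was stom, at 15.95 of a mean of 37.5 CPM in F1 high ARA livers. In F0 high ARA livers it was 22.3 of 44.4 CPM. The mean log2 level of the 8 membrane genes correlated with that of the 8 red blood cell genes at r = 0.69 and rho = 0.78 over the 24 libraries. Within groups r was 0.86 in F1 high ARA, 0.91 in F1 control, 0.94 in F0 high ARA and 0.76 in F0 control livers. Without the 2 libraries farthest from the median of the 8-gene mean, it was 0.69. Taken singly, r ran from -0.19 for stom and -0.04 for gypc to 0.71 for epb41b, coding for a protein 4.1 of the membrane skeleton, at a mean of 6.63 CPM. By edgeR none of those tested was called in F1 high ARA against F1 control, F0 high ARA against F0 control or F1 control against F0 control, where 2 of 7, 1 of 8 and 0 of 8 had an unadjusted p under 0.05, against 19.8%, 7.43% and 18.1% of all genes. In F1 high ARA against F0 high ARA 1 of 8 was called, against 16.9% of all genes. That gene was stom, coding for stomatin, at 15.95 ± 2.38 CPM in F1 high ARA livers, against 22.3 ± 4.4 CPM in F0 high ARA livers (SD, n = 6 each), at a log2FC of -0.49 (SE 0.15, adjusted p = 0.0343). Stomatin is a membrane protein that many tissues make. This call was lost with library totals, without the filter and when any of 7 single libraries of the 12 was left out (replicates 14, 16 and 17 of F1 high ARA and 13, 14, 15 and 17 of F0 high ARA), where the adjusted p reached 0.0742.

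Transcripts of thrombocytes, the fish counterpart of platelets, were also set beside the 8 genes. Of 6 thrombocyte genes 3 passed the filter (gp1bb, gp9 and thbs1b), all under 5 CPM on average, and itga2b, a defining marker, was at 0.937 CPM. Their mean log2 level had r = 0.64 and rho = 0.49 with the 8 genes, with r = 0.96 in F1 high ARA, 0.22 in F1 control, 0.58 in F0 high ARA and 0.93 in F0 control livers. Taken singly, r was 0.69 for gp1bb and 0.68 for gp9, which code for parts of the platelet glycoprotein Ib complex, and -0.25 for thbs1b. Without the same 2 farthest libraries r was 0.61.

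The correlation of other cell type lists with the 8 genes was r = 0.40 (rho = 0.29) for 8 hepatocyte genes and 0.35 (rho = 0.47) for 13 pancreas genes. Within F1 high ARA, F1 control, F0 high ARA and F0 control livers r was 0.49, -0.70, 0.56 and -0.48 for the hepatocyte genes. In the same order it was 0.75, 0.02, 0.24 and 0.44 for the pancreas genes. Over all libraries r was 0.08 (rho = 0.08) for 5 enterocyte genes and -0.09 (rho = -0.03) for 5 endothelial genes. It was -0.13 (rho = 0.06) for 3 neutrophil genes and -0.19 (rho = -0.06) for 5 macrophage genes. Within groups, in the order above, r was -0.43, 0.37, -0.23 and 0.76 for enterocyte and 0.48, 0.25, 0.36 and -0.54 for endothelial genes. It was 0.21, 0.41, -0.54 and 0.63 for neutrophil and -0.20, 0.10, -0.74 and 0.78 for macrophage genes. Values near zero over all libraries thus held values of both signs within groups. For the log2 total count of the library r was -0.38 (rho = -0.41). In all, 16 such relations were computed. They are descriptions, with no p-value, and differences between lists were not tested.

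A list drawn up for erythroid iron uptake and related transport had a negative correlation over all libraries. Of its 7 genes 4 passed the filter: tfr1b, slc11a2, abcb10 and tmem14ca, the first 2 at mean counts of 2208 and 526. The genes tfr1a, slc25a37 and steap3 did not pass, at mean counts of 1.08, 0.29 and 2.92. The mean log2 level of the 4 had r = -0.30 and rho = -0.30 with the 8 genes. Whether these reads came from erythroid cells was not tested. Within groups r was 0.61 in F1 high ARA, -0.82 in F1 control, -0.51 in F0 high ARA and -0.16 in F0 control livers, so its sign was not the same in all groups. Neither edgeR nor DESeq2 called any of the 4 in the 4 comparisons, and 1 had an unadjusted p under 0.05 by edgeR in F0 high ARA against F0 control, where 7.43% of all genes did, 1 in F1 control against F0 control, where 18.1% did, and 0 in the others.

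**Figure D5:**
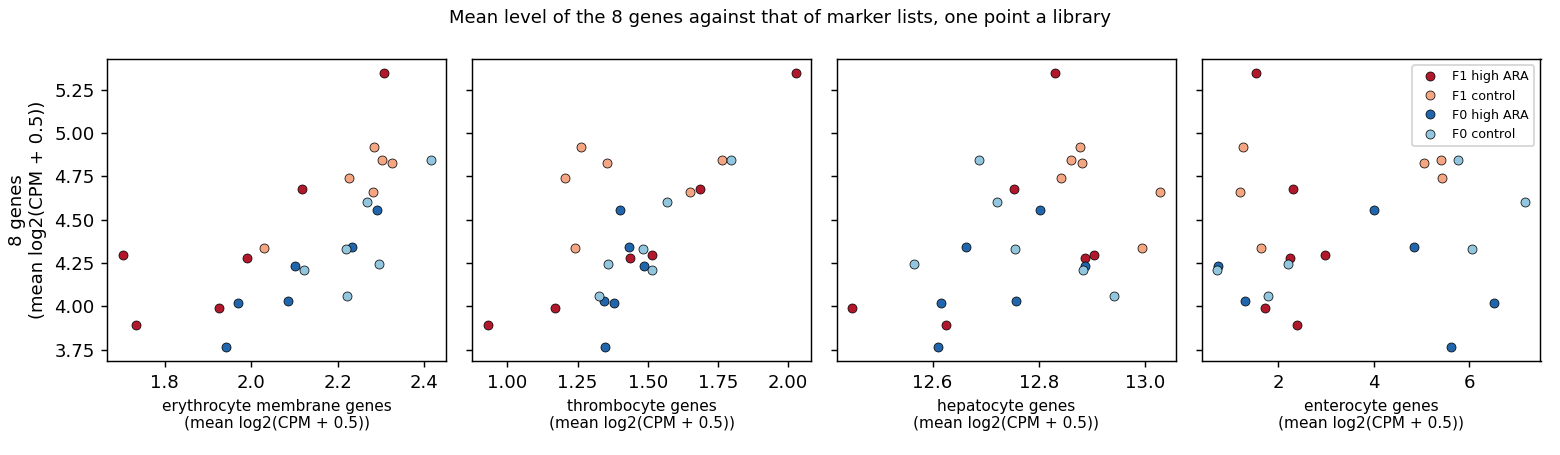
Mean log2(CPM + 0.5) of the 8 genes (y axis) against that of 8 erythrocyte membrane, 3 thrombocyte, 8 hepatocyte and 5 enterocyte genes (x axes), 1 point a library, coloured by group. The points rise together in the erythrocyte membrane panel (r = 0.69) and the thrombocyte panel (r = 0.64), and are scattered in the enterocyte panel (r = 0.08).

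Heme synthesis genes other than alas2 were taken from the same libraries. Of 9 such genes, 8 passed the filter, and edgeR called none in the 4 comparisons or in the interaction, while 1, 0, 1 and 0 of the 8 had an unadjusted p under 0.05 in F0 high ARA against F0 control, F1 high ARA against F1 control, F1 control against F0 control and F1 high ARA against F0 high ARA, against 7.43%, 19.8%, 18.1% and 32.9% of all genes. DESeq2 called none of them. The housekeeping enzyme gene alas1 was at 41.5 ± 6.4 CPM in F1 high ARA, 38.3 ± 4.4 in F1 control, 49.7 ± 21.6 in F0 high ARA and 44.6 ± 12.5 in F0 control livers (SD, n = 6 each). The mean log2 level of the 8 pathway genes had r = -0.08 and rho = -0.12 with the erythrocyte genes. Within groups r was -0.24 in F1 high ARA, 0.61 in F1 control, -0.74 in F0 high ARA and 0.27 in F0 control livers. Taken singly, uros had r = 0.45. That value is of 1 gene out of the 8 and does not describe the list, whose mean level had a correlation near zero with the erythrocyte genes.

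Among 10 erythroid regulators, 5 passed the filter over the 24 libraries, and the most abundant was hemgn, coding for hemogen, at a mean of 78.8 CPM. Their mean log2 level had r = 0.61 and rho = 0.63 with the 8 genes, with r = 0.71 in F1 high ARA, -0.22 in F1 control, 0.49 in F0 high ARA and 0.40 in F0 control livers. The defining factors gata1a and klf1 were near 1.09 CPM each. Of the regulators tested, 2 of 6 had an unadjusted p under 0.05 by edgeR in F0 high ARA against F0 control, against 7.43% of all genes. In F1 high ARA against F1 control 2 of 5 did, against 19.8%. Between the generations 1 of 5 did in each lineage, against 18.1% for the controls and 32.9% for high ARA. The regulator zfpm1, a cofactor of GATA factors, was the only one of this list called by edgeR, at 9.07 ± 1.82 CPM in F1 high ARA livers, against 13.4 ± 1.7 CPM in F0 high ARA livers (SD, n = 6 each), at a log2FC of -0.56 (SE 0.14, adjusted p = 0.0147), which is 1 of 5 against 16.9% of all genes. DESeq2 also called hemgn, at 96.5 ± 11.3 CPM in F1 control livers, against 75.8 ± 6.0 CPM in F0 control livers (SD, n = 6 each; adjusted p = 0.0226 by DESeq2 and 0.0877 by edgeR).

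Clearing free hemoglobin and heme is a task of hepatocytes and macrophages. The list for it had 10 tested genes, among them the iron handling genes tfa, cp, fth1a and slc40a1. Of these 10, edgeR called 3 in F1 high ARA against F0 high ARA, 2 higher and 1 lower, where 16.9% of all genes were called. It called 1 in F1 control against F0 control, where 2.34% were. Heme oxygenase gene hmox1a, which codes for the enzyme that opens the heme ring, averaged 272 ± 191 CPM in F1 high ARA livers, against 41.9 ± 19.6 CPM in F0 high ARA livers, at a log2FC of 2.70 (SE 0.52, adjusted p = 0.00662). In the control diet it averaged 192 ± 101 CPM in F1 and 44.1 ± 10.8 CPM in F0 livers, with 2.11 (SE 0.41, adjusted p = 0.0273; SD, n = 6 each). It was called in neither diet comparison. Between the controls the call was lost with the replicate block (adjusted p = 0.168), without the low-count filter (0.0542) and when any of 5 single libraries was left out (replicates 8 and 10 of F1 control and 7, 9 and 10 of F0 control), where the adjusted p reached 0.0597. Between the high ARA groups it held in each of these fits. The heme-binding plasma protein gene hpx, coding for hemopexin, stood at 6481 ± 1029 CPM in F1 high ARA livers, against 4640 ± 648 CPM in F0 high ARA livers (SD, n = 6 each), a log2FC of 0.48 (SE 0.12, adjusted p = 0.0163). This call was lost in 1 fit of all 24 libraries (adjusted p = 0.0662). The heme transporter gene slc48a1a was at 0.856 ± 0.319 CPM in F1 high ARA livers, against 4.22 ± 1.00 CPM in F0 high ARA livers, a log2FC of -2.29 (SE 0.25, adjusted p = 0.000158). It averaged only 16.7 reads per library over the 24 libraries, so its F1 level rests on few reads. The related gene slc48a1b, at a mean count of 70.3, was not called in this comparison.

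Globins made outside the red blood cell had correlations near zero with the 8 genes over all libraries. Myoglobin gene mb and cytoglobin gene cygb1 passed the filter at means of 16.1 and 50.1 CPM, and their correlation with the mean of the 8 genes was r = 0.05 for mb and 0.02 for cygb1. For their mean log2 level r was -0.29 in F1 high ARA, 0.75 in F1 control, -0.07 in F0 high ARA and -0.55 in F0 control livers. In F1 high ARA livers cygb1 was at 37.1 ± 4.3 CPM, against 54.7 ± 10.9 CPM in F0 high ARA livers (SD, n = 6 each), a log2FC of -0.57 (SE 0.14, adjusted p = 0.0137).

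The genes most like the 8 were found by the correlation of their log2(CPM + 0.5) with the mean z-score of the 8 over the 24 libraries, among 11974 genes. Of the 10 closest, 2 were the neighbouring globins ba1l (r = 0.74) and si:ch211-5k11.8 (r = 0.71), whose exons overlap the Ensembl models of hbba1 and hbaa1. The closest of all was ENSDARG00000044212 on chromosome 19, at a mean of 38.9 CPM and r = 0.85, with no symbol in the tables used. The others were epb41b (0.72), si:dkey-93h22.7 (0.72), gp1bb (0.70), the gene matched to sort1a (0.69), ppp2r3b (0.69), f11r.1 (0.69) and gp9 (0.68). This is an order of likeness in these libraries and was not tested.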

How the data were processed

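RNA of 24 zebrafish liver libraries was measured, 6 in each of 4 groups. The authors sequenced single-end reads from a stranded kit, mapped them to GRCz10 with HISAT2 and deposited gene counts from featureCounts 1.5.0-p3 for the Ensembl release 85 and the RefSeq annotation. Per the file headers, the deposited counts ignored strand and excluded multi-mapping reads and those over more than 1 gene. The counts were not normalized. Of the count columns in each file, 12 belong to samples not used here. Of the 8 genes, 5 were matched by symbol and hbba1, hbba2 and slc4a1a by exon overlap of the Ensembl with the RefSeq gene (at least 50% of exon bases). No sequences were used here.

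The 8 genes and the marker lists were chosen with earlier results of these data known. The genes named were the 8, the called genes and the 3 with the highest mean CPM in each list, and the 10 genes most like the 8. Not every gene of that rule is printed, since the lists of other cell types are given by their sums.

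CPM used TMM factors over the 24 libraries, and levels per kilobase used RefSeq exon lengths. For group comparisons edgeR 4.0.16 (R 4.3.3; quasi-likelihood F test, robust, TMM) was run on the 12 libraries of each comparison and on 24 for the interaction, leaving out genes with a mean count under 10. A gene was called at a p-value under 0.05, adjusted over all genes after Benjamini and Hochberg. The SE was derived from the F statistic. Single genes were also compared by exact permutation tests on log2(CPM + 0.5) (SciPy 1.17.1), and correlations are given as descriptions. The fits were tested on simulated data. P-values measure the spread between tanks. The depth of 5144880 to 15659321 counts a library gave hbaa2 12 to 116 reads and slc4a1a 33 to 119, so their values carry the largest counting error.

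The alternatives were DESeq2 1.42.0 with and without a prior, RLE size factors, library totals, other filters, RefSeq counts, 1 fit of all 24 libraries, a replicate block and leaving out each library. No pair of libraries was alike within sampling noise, since chi-square per degree of freedom was 7.48 or more in all 276 pairs.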

Additional observations from a re-analysis of the deposited data

Results flagged for a closer look

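In F1 high ARA livers replicate 14 stood apart for the alpha globin hbaa2, with 14.1 CPM against 2.51 to 4.81 CPM in the other 5. The gap to its nearest neighbour was 0.640 of the group's range, above Dixon's 95% critical value for a group of this size. This was the 1 case among 32 gene and group combinations tested, and chance gives about 1 in 20.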

How the results depend on the processing

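The count of the 8 genes called was 0 in F1 high ARA against F1 control, F0 high ARA against F0 control, F1 control against F0 control and the interaction, and 1 in F1 high ARA against F0 high ARA, under each test, scaling, filter and annotation tried. Leaving out 1 library gave counts of 0 to 1 in F1 high ARA against F1 control, where hbaa1 was called without replicate 14 of F1 high ARA, and moved no other count. Some signs turned. The interaction of cahz was -0.01 and became 0.0770 with library totals and 0.0128 without the filter. The difference of hbaa2 between F1 high ARA and F1 control on log2 CPM was -0.07 and became 0.0335 with library totals, and 0.284 CPM on the linear scale. Among the fits that left out 1 library, 33 estimates changed sign, and the log2 fold changes of those genes spanned zero. In F0 high ARA against F0 control they were -0.0819 to 0.20 for slc4a1a. In F1 high ARA against F1 control they were -0.43 to 0.25 for hbaa2. In F1 control against F0 control they were -0.14 to 0.0548 for hbba1 and -0.0324 to 0.34 for slc4a1a. In F1 high ARA against F0 high ARA they were -0.16 to 0.25 for hbba1 and -0.32 to 0.0171 for slc4a1a. In the interaction they were -0.0527 to 0.64 for hbaa2, -0.11 to 0.31 for hbba1, -0.53 to 0.00413 for hbba2, -0.0389 to 0.26 for alas2, -0.28 to 0.0986 for cahz and -0.11 to 0.33 for nt5c2l1.

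Labels give replicate numbers shared by F1 and F0 groups, but over 12 pairs only 4 correlated above 0.1 and 1 library was closest to its own number, so the numbers were not taken as pairs. With the replicate block, nt5c2l1 in F1 high ARA against F0 high ARA had a log2 fold change of 0.69 and an adjusted p of 0.0271. Genes called then numbered 175 in place of 275 in F1 control against F0 control, 1549 in place of 2058 in F1 high ARA against F0 high ARA and 9 in place of 13 for the interaction. The diet groups share no number.

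Over all genes DESeq2 called more: 610 and 606 without and with a prior against 226 in F1 high ARA against F1 control, 21 and 27 against 0 in F0, 614 and 609 against 275 in F1 control against F0 control, and 118 without a prior against 13 for the interaction. In 1 fit of all libraries these were 348 in F1 and 461 between the controls, and with a mean count of at least 50 they were 147 in F1 and 1 for the interaction. With library totals the median of all genes in F1 high ARA against F1 control was 0.128 in place of 0.005. Of the genes called there, 171 were higher and 65 lower, in place of 109 and 117. In the interaction the median was 0.116 in place of 0.012, with 10 higher and 5 lower in place of 7 and 6. The gene hbaa2 gave no value at a mean count of at least 50, and DESeq2 with a prior was not run for the interaction. Without F1 high ARA replicate 14, chosen after seeing the data, the median CV of the 8 genes in that group was 26.9% in place of 42.2%. The same alternatives, also added then, ended the call of stom with library totals and without the filter, of hpx in 1 fit of all libraries (each in F1 high ARA against F0 high ARA), and of hmox1a between the controls without the filter and with the replicate block.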
